A study of Mus musculus with 12 samples.

Results

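The 4 surfactant protein genes of the mouse, Sftpa1, Sftpb, Sftpc and Sftpd, were followed in RNA from alveolar type 2 cells (AEC2), the surfactant-producing epithelial cells of the lung. They were found by matching the Ensembl identifiers of the deposited tables to gene symbols, and all 4 were among the 16080 genes measured. The 12 libraries came from AEC2 of female Bl6 mice at postnatal day 56, with 4 libraries in each of 3 groups by the genotype field: SP-C WT, SP-C C185Gneo, which the series uses as a hypomorphic control, and SP-C C185G, the mutant. Per the labels, every group, WT included, was given 200 mg per kg tamoxifen by intraperitoneal injection on 2 days, and cells were taken on day 7. The series asks how AEC2 respond once mutant SP-C is expressed. The sources used here do not name the recombinase or the cells in which it acts. They also do not say whether each library came from its own mouse, so p-values measure the spread between these libraries, which may be technical.

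Surfactant is a film of lipid and protein that lowers surface tension where air meets the alveolar wall. SP-B and SP-C are small hydrophobic proteins that are cut from larger precursors, stored with lipid in lamellar bodies and needed for the film to spread. SP-A and SP-D are soluble collectins, lectins with a collagen-like tail, that bind microbes and help to regulate surfactant turnover, and airway club cells also make SP-A, SP-B and SP-D. The SP-C precursor carries a BRICHOS domain at its C-terminal end that assists folding in the endoplasmic reticulum.

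Sftpc is the edited gene. Its position is chr14:70520949-70524081, minus strand (GRCm38, the assembly also called mm10). The codon that C185G names is TGT, which codes for cysteine, at chr14:70521353-70521355 in exon 5 of 6. The stretch below shows how close to the end of the reading frame the edit falls: it runs from codon 170 to codon 193, the last before the stop, at chr14:70521329-70521400. It is the reference sequence of the principal transcript (GENCODE release M21), read 5′ to 3′ on the minus strand, with the edited codon in capitals; 8 of the 193 codons follow it.
Sftpc codons 170 to 193: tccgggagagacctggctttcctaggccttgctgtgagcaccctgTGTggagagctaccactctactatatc

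Sftpa1 and Sftpd also lie on chromosome 14, from 41131782 to 41136452 on the plus strand and from 41172214 to 41185149 on the minus strand, with 35761 bases between them. Sftpb lies on chromosome 6 from 72304610 to 72314371 on the plus strand. No other annotated gene overlaps any of the 4 on either strand.

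Promoter sequences from RefSeq (GRCm38.p6) matched 2 of the 4 genes, Sftpb and Sftpa1, and are shown because both genes were lower in C185G and neither was called in C185Gneo. Capitals mark CTCAAG or its reverse complement CTTGAG, the core letters of sites bound by NKX2-1, a transcription factor of lung epithelium. Each run holds the 250 bases before the transcription start of the RefSeq table, which for Sftpa1 lies downstream of the GENCODE start given above, 5′ to 3′ on the plus strand, at chr6:72304360-72304609 and chr14:41131538-41131787.
Sftpb promoter: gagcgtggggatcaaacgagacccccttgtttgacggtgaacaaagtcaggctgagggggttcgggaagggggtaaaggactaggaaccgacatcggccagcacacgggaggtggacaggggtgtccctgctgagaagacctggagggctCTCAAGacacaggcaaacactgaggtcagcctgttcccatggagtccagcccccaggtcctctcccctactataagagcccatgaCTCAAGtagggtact
Sftpa1 promoter: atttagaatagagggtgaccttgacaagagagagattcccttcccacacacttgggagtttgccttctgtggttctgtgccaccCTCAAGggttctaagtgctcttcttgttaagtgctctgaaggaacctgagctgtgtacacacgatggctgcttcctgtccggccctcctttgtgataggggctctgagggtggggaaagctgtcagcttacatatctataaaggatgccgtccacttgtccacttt
The Sftpb window holds 2 such matches, which begin 100 and 15 bases before the start, and the Sftpa1 window 1, which begins 166 bases before it. Of 32851 mouse promoter windows of the same length, 13.3% hold the letters on either strand. A match is a description of the sequence and not evidence of a bound site.

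Levels below are normalized CPM, that is, recovered counts multiplied by the authors' factor for the library and set so that the 12 libraries average 1000000, and changes are log2 differences from 1 limma fit of all 12 libraries with Benjamini-Hochberg adjustment over all 16080 genes. A gene was called at an adjusted p under 0.05. Recovered totals ran from 15659512 to 23444287 counts per library, and each of the 4 genes had at least 13305 counts in every library, so counting error was small beside the spread between libraries. The titles of the C185Gneo libraries carry the name C185G and those of the C185G libraries another code; by the genotype field, the group with the lowest Sftpc was the one named hypomorphic by the series.

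Sftpc was the only 1 of the 4 genes called in C185Gneo against WT, where 11.9% of its WT level was left, while all 4 were lower in C185G than in WT, at 37.8 to 59.6% of the WT level. In bulk RNA, fewer cells of a type and less RNA per cell cannot be told apart. In C185Gneo against WT, 1 of the 4 genes was called lower, where 0.292% of all genes were called lower and 0.541% in either direction. In C185G against WT, 4 of 4 were called lower, where 27.8% of all genes were called lower and 55% in either direction. In C185G against C185Gneo, 3 of 4 were called lower and Sftpc higher, beside 28.7% of all genes called lower, 29.2% called higher and 57.8% called in either direction. The libraries of the groups did not overlap for the same genes: 1 of 4 in C185Gneo against WT (3.3% of all genes were lower without overlap), 4 of 4 in C185G against WT (23.5%), and in C185G against C185Gneo 3 lower (24.2%) and 1 higher (25.7%). The background is broad in both contrasts with C185G, and a call alone does not set a gene apart there. With library totals as the scaling, 59.9% of the calls in C185G against WT were higher in place of 49.6%, and every call among the 4 genes kept its direction.

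**Figure D1:**
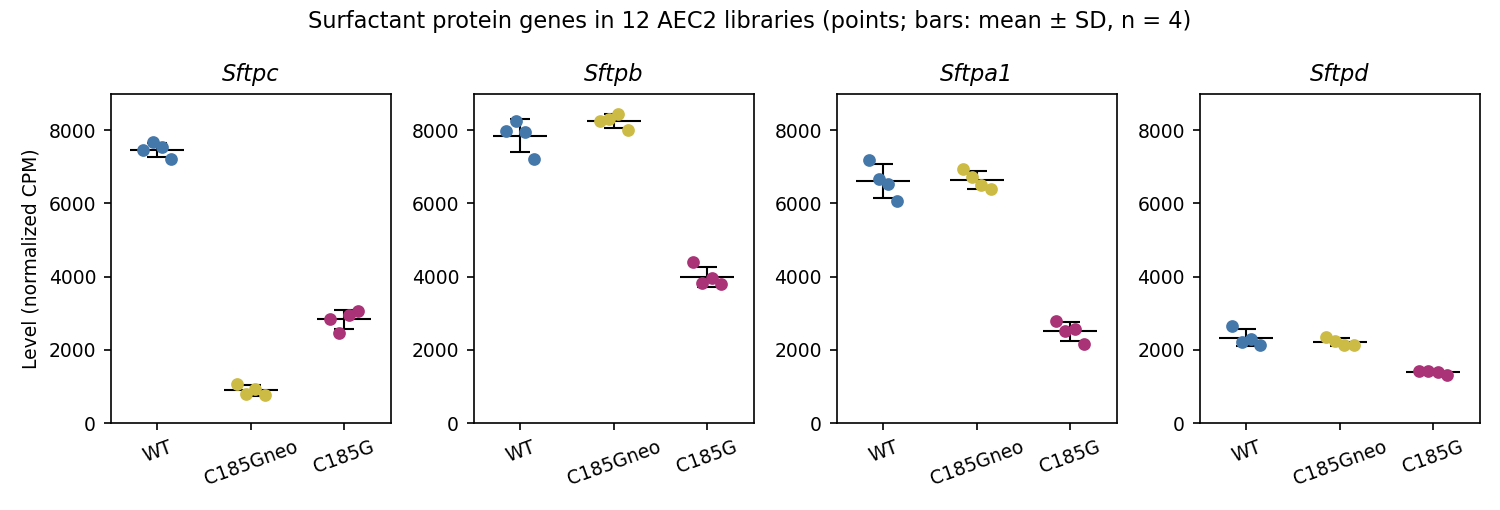
Level of each surfactant protein gene in normalized CPM (vertical axis, linear from 0) in the 3 groups; points are libraries and bars the mean ± SD of 4. Sftpc separates into 3 levels (WT 7467, C185G 2833, C185Gneo 895), whereas Sftpb, Sftpa1 and Sftpd overlap between WT and C185Gneo and are lower in C185G.

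Sftpc, which encodes the precursor of SP-C, stood at 7454, 7674, 7530.4 and 7211 normalized CPM in the WT libraries. The C185Gneo libraries held 1079, 793, 936 and 772, and the C185G libraries 2847, 2471, 2954 and 3059. No library of one group reached the range of another. The fall in C185Gneo against WT was 3.07 on the log2 scale (limma change -3.07, SE 0.0978, adjusted p = 5.93e-10), which left 11.9% of the WT level (95% interval 10.3 to 13.7%). It had the smallest p of all genes in this contrast and was the 20th lowest change of the 16080. In C185G against WT, 37.8% of the level was left (95% interval 32.7 to 43.8%; change -1.40, adjusted p = 6.89e-08). Between the edited groups, Sftpc was 3.18 times as high in C185G as in C185Gneo (95% interval 2.75 to 3.68; change 1.67, adjusted p = 1.14e-08).

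The coefficient of variation of Sftpc was 2.59% in WT, 16% in C185Gneo and 9.05% in C185G (n = 4 each), a difference in spread that was not tested. By abundance, Sftpc was gene 2 or 3 of each WT library, gene 5 to 11 of each C185G library and gene 64 to 121 of each C185Gneo library.

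Sftpb encodes the precursor of SP-B, whose mature form is a saposin-like protein that is required for breathing at birth. WT libraries had 7973, 8252, 7960.0 and 7215 normalized CPM, and C185Gneo libraries 8245, 8303, 8443 and 8007. These ranges overlap. The C185G libraries held 4401, 3834, 3954 and 3800.3, all below every library of the other groups. In C185G, 50.9% of the WT level was left (95% interval 46.3 to 56%; change -0.97, SE 0.0638, adjusted p = 4.01e-08), and against C185Gneo the change was -1.05 (adjusted p = 1.53e-08). In C185Gneo against WT the change was 0.07 (adjusted p = 0.8), with a 95% interval of 95.7 to 116% of the WT level.

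Sftpa1 encodes SP-A, the more abundant collectin of surfactant. WT libraries held 7185, 6666.5, 6539 and 6066 normalized CPM, and C185Gneo libraries 6932, 6728, 6514 and 6383, which lie inside the WT range. C185G libraries held 2793, 2522, 2565 and 2162. The level left in C185G was 37.9% of WT (95% interval 33.7 to 42.5%; change -1.40, SE 0.0778, adjusted p = 9.25e-09), and the change against C185Gneo was -1.41 (adjusted p = 7.35e-09). In C185Gneo the change against WT was 0.01 (adjusted p = 0.99), with a 95% interval of 89.5 to 113% of the WT level.

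Sftpd encodes SP-D, a collectin that assembles into cross-shaped multimers. The WT libraries held 2656, 2223, 2305 and 2139 normalized CPM, the C185Gneo libraries 2348, 2238, 2120.5 and 2121, and the C185G libraries 1409.7, 1410.5, 1401 and 1323. The first 2 groups overlap and the third lies below both. Its change in C185G against WT was the smallest of the 4 in value, with 59.6% of the level left (95% interval 53.9 to 66%; change -0.75, SE 0.0675, adjusted p = 7.68e-07). Against C185Gneo the change was -0.67 (adjusted p = 1.83e-06). In C185Gneo against WT it was -0.08 (adjusted p = 0.814), with a 95% interval of 85.8 to 105% of the WT level.

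**Figure D2:**
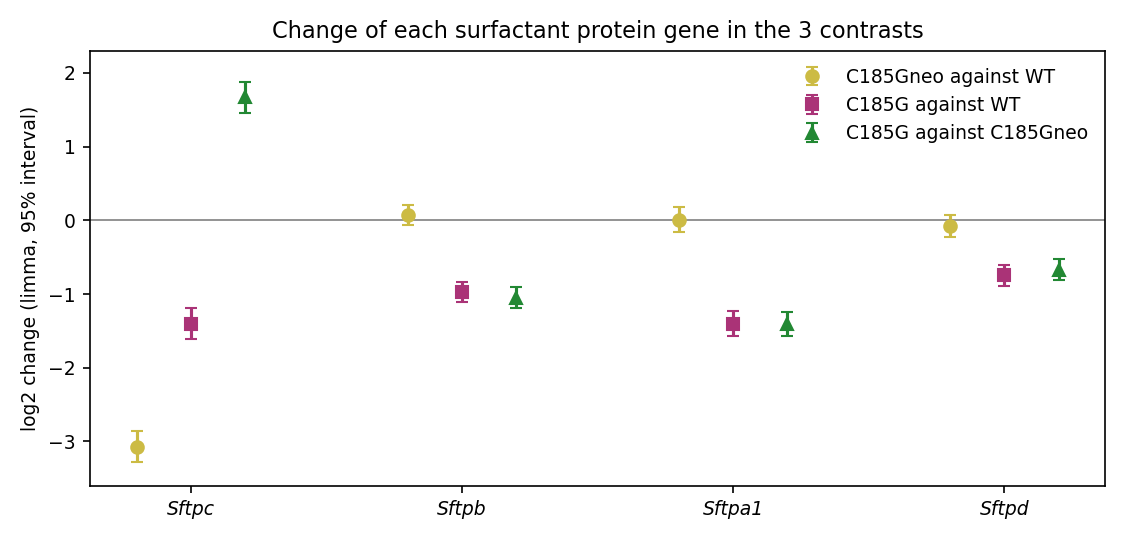
log2 change of each gene from the limma fit (vertical axis) in the 3 contrasts, with 95% intervals. Sftpc moves in every contrast (-3.07, -1.40 and 1.67), and the other 3 genes lie near 0 in C185Gneo against WT and between -0.67 and -1.41 in both contrasts with C185G.

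The contrasts share libraries (WT is the reference of 2 of them), so their values are given side by side and not as independent results. The count of genes called in C185Gneo against WT, 87, was the least stable background: it fell to 40, 45 and 51 without WT replicate 1, 3 or 4 and to 43, 42 and 44 without C185Gneo replicate 1, 2 or 3, and rose to 162 with library quality weights. Sftpc was called in each of these settings. At an unadjusted p under 0.05, 1534 genes passed in this contrast, and none of Sftpa1, Sftpb and Sftpd was among them. Quantile normalization forces every library to the same distribution. Sftpb ranked from 1 to 3 in every library, and this setting reduced its change in C185G to -0.15 against WT (adjusted p = 0.0604) and to -0.15 against C185Gneo (adjusted p = 0.0582), which ended both calls. The changes in C185G against WT of Sftpc (-0.52), Sftpa1 (-0.78) and Sftpd (-0.45) were also smaller under it and kept their calls.

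Ratios within a library do not depend on how that library is scaled as a whole. The log2 ratio of Sftpc to Sftpb was -0.10, -0.10, -0.08 and -0.000653 in the WT libraries, -2.93, -3.39, -3.17 and -3.37 in the C185Gneo libraries, and -0.63, -0.63, -0.42 and -0.31 in the C185G libraries. These ratios are of values not divided by transcript length, so only their differences between groups are read. The ratio was lower in both edited groups than in WT, with no overlap. C185G differed from WT by -0.43 (exact interval -0.63 to -0.21, coverage 97.1%; exact two-sided permutation p = 0.0286, adjusted p = 0.0321 over the 9 ratio tests). In C185Gneo against WT the difference was -3.15.

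The log2 ratio of Sftpc to Sftpd averaged 1.68 ± 0.134 over WT libraries, -1.31 ± 0.191 over C185Gneo libraries and 1.03 ± 0.167 over C185G libraries (SD, n = 4). The difference between C185G and WT was -0.66 (exact interval -0.98 to -0.28; exact permutation p = 0.0286, adjusted p = 0.0321), so Sftpc fell further than Sftpd. This difference was -0.066 under quantile normalization (exact permutation p = 0.743), which was the largest p of its alternatives.

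The ratio of Sftpc to Sftpa1 did not separate C185G from WT. It was 0.05, 0.20, 0.20 and 0.25 in WT and 0.03, -0.03, 0.20 and 0.50 in C185G, and these ranges overlap. The difference was -0.00156 (exact permutation p = 1) with an exact interval of -0.28 to 0.45, so the interval still holds an unequal change of up to 0.45 on the log2 scale. In C185Gneo the ratio was -2.90 ± 0.194 (SD, n = 4). All 6 ratio differences that involve C185Gneo had an exact permutation p = 0.0286, the smallest that 4 against 4 libraries can give, and an adjusted p = 0.0321.

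**Figure D3:**
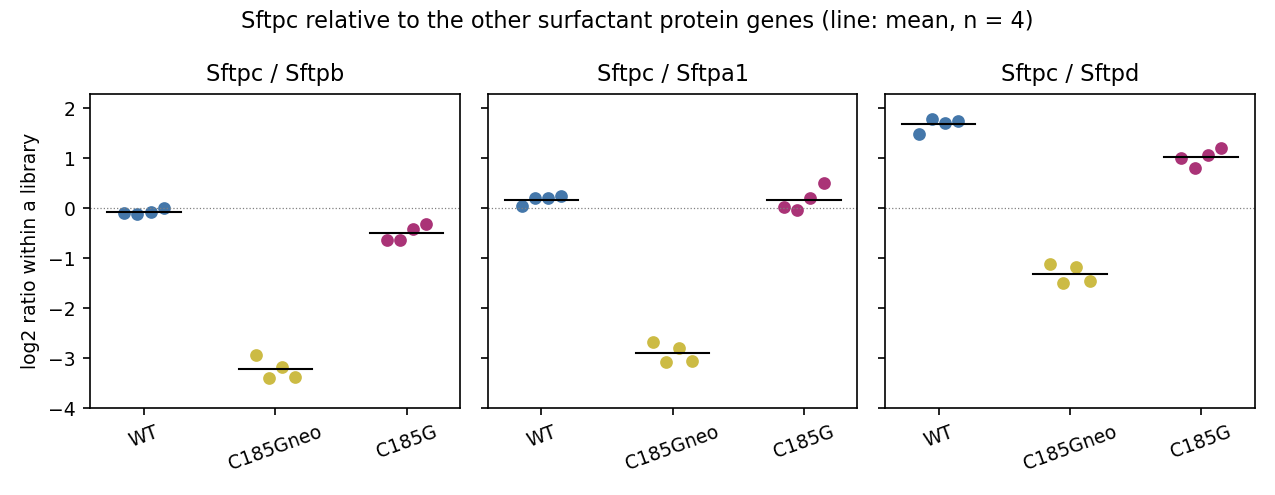
log2 ratio of Sftpc to each other surfactant protein gene within a library (vertical axis) by group; points are libraries and lines the mean of 4. C185Gneo libraries lie far below both other groups in all 3 panels, and in the panel with Sftpa1 the C185G and WT libraries overlap (means 0.18 and 0.18).

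Together the 4 genes took 2.25 to 2.43% of all recovered counts in WT libraries, 1.69 to 1.86% in C185Gneo libraries and 1.07 to 1.20% in C185G libraries, with no overlap between the groups. The make-up of this sum differed. Sftpc supplied 29.5 to 31.9% of the summed normalized CPM of WT libraries, 4.39 to 5.80% in the C185Gneo libraries and 24.1 to 29.6% in the C185G libraries.

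**Figure D4:**
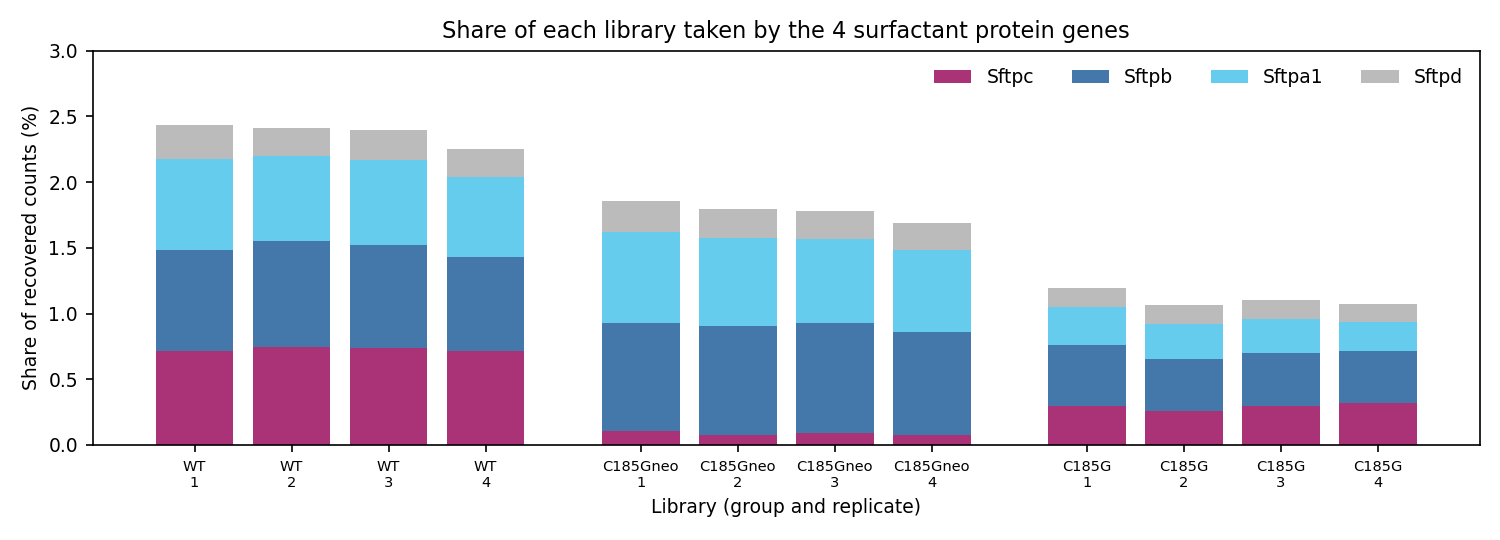
Share of the recovered counts of each library in percent (vertical axis) taken by Sftpc, Sftpb, Sftpa1 and Sftpd, stacked, with 1 bar per library. The stack is highest in WT (2.25 to 2.43%), loses most of its Sftpc segment in C185Gneo and is lower in all segments in C185G (1.07 to 1.20%).

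Within groups the genes did not always vary together. Among the C185G libraries, replicate 4 was lowest in Sftpa1 (2162), Sftpb (3800.3) and Sftpd (1323) and highest in Sftpc (3059). The summed level of the 9 AEC2 markers was also lowest in that library, at 5971 normalized CPM beside 7432 to 8981 in the other C185G libraries. In WT, replicate 4 was lowest in all 4 genes and in that marker sum (21872, beside 25374 to 27148). Replicate 4 of C185G and of WT had 15659512 and 16328539 counts, the lowest totals of the 12. In C185Gneo, replicate 4 was also lowest in Sftpa1 (6383), Sftpb (8007), Sftpc (772) and the marker sum (25629), and replicate 3 in Sftpd (2120.5). Replicate 4 of C185Gneo had 17593372 counts, more than the 17009457 of replicate 3. The parts of depth and of replicate number in this order were not tested.

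Levels of different genes were compared per kilobase of the principal transcript, which is 792 bases for Sftpc, 1490 for Sftpb, 2854 for Sftpa1 and 1275 for Sftpd. On this scale WT cells held most Sftpc (9429 ± 244 normalized CPM per kb), then Sftpb (5268 ± 298), Sftpa1 (2318 ± 161) and Sftpd (1828 ± 178; SD, n = 4 each). In C185Gneo Sftpc came last: Sftpb stood at 5537 ± 122, Sftpa1 at 2326 ± 84.6, Sftpd at 1731 ± 85.4 and Sftpc at 1130.3 ± 180.3. In C185G Sftpc was first again at 3577 ± 324, followed by Sftpb at 2683 ± 186, Sftpd at 1087 ± 33.1 and Sftpa1 at 879.6 ± 91.6. Neighbours in each order did not overlap between libraries. With the union of all annotated exons as the length, Sftpa1 (878) came before Sftpd (573) in C185G, so the order of these genes rests on the choice of length. The other positions of the group means were the same, although Sftpd (913) and Sftpc (866) then overlapped in C185Gneo. There Sftpc lay above Sftpd in replicates 1 (1044 and 971) and 3 (905 and 877). It lay below Sftpd in replicates 2 (767 and 926) and 4 (747 and 878).

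Each member was compared with 11108 other genes with a mean of at least 5 normalized CPM. Predicted genes, pseudogenes and genes without a symbol were left out. The genes with the pattern most like each member were found by the root mean square difference of log2 values over the 12 libraries, each gene set to its own WT mean. Sftpa1 had close neighbours: Muc1, an epithelial mucin, at 0.0576, Fasn, fatty acid synthase, at 0.0755 and Acly, ATP citrate lyase, at 0.079. The gene nearest to Sftpb was Zfp467 at 0.0599, followed by Mllt6 (0.0631) and Sntb1 (0.0642). Those nearest to Sftpd were Sipa1l3 (0.0678), Maged1 (0.071) and Fam117a (0.0724). For Sftpc none of the genes compared came near, and the smallest difference was 0.91, for Cxcl5, a neutrophil chemokine. Cxcl5 averaged 26.3 ± 10.3 normalized CPM over WT libraries, 8.05 ± 2.78 over C185Gneo libraries and 9.61 ± 1.11 over C185G libraries (SD, n = 4). The next were the immunoglobulin variable genes Iglv1 (0.913) and Ighv9-3 (0.956), whose identity is uncertain because such genes share sequence. Zfp467 averaged 47.5 ± 4.10 normalized CPM in WT and 24.5 ± 3.38 in C185G, and Muc1 1134 ± 101 and 441 ± 57.4. These genes were chosen by their values in the same 12 libraries, so their lower level in C185G follows from the choice and is not tested.

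Genes that process and store surfactant proteins were mostly lower in C185G. Of 12 measured, 8 fell and 2 rose against WT (27.8% of all genes were called lower), with a median change of -0.52 beside 0.00 for all genes. Napsa, the aspartic protease napsin A, which cuts the SP-B precursor, fell (-1.25, adjusted p = 9.39e-08). Slc34a2, a phosphate transporter of the AEC2 surface, fell too (-1.74, adjusted p = 1.34e-07), as did Lpcat1, which makes surfactant phosphatidylcholine (-1.22, adjusted p = 6.59e-07). Ctsh, cathepsin H, another protease of SP-B and SP-C maturation, rose by 0.94 (adjusted p = 5.49e-07), and so did Pgc, progastricsin, also an SP-B protease, by 0.83 (adjusted p = 0.000278). In C185G against C185Gneo, 9 fell and 1, Ctsh, rose (adjusted p = 2.49e-07), with a median of -0.67, beside 28.7% of all genes called lower and 29.2% called higher. Abca3, the lipid pump of the lamellar body membrane, changed there by -1.46 (adjusted p = 3.2e-07), Napsa by -1.50 and Slc34a2 by -1.84.

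In C185Gneo against WT 1 of the 12 genes was called, where 0.541% of all genes were called in either direction. Pgc rose by 1.37 (adjusted p = 0.00043), and it was lower in C185G than in C185Gneo (-0.54, adjusted p = 0.00556). The median of the 12 was 0.01.

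Transcription factors and cofactors listed as regulators of surfactant protein genes, Yap1, Wwtr1 and Hopx among them, were also mostly lower in C185G. Against WT 10 of 15 fell and 2 rose, with a median change of -0.23, beside 27.8% of all genes called lower and 55% called in either direction. Cebpa, a factor of AEC2 maturation and lipid synthesis, fell (-1.10, adjusted p = 7.73e-07). So did Nfia (-0.91, adjusted p = 6.38e-07), Etv5, which maintains AEC2 identity (-1.15, adjusted p = 3.88e-05), and Stat3 (-0.29, adjusted p = 0.000103). Klf5 (0.24, adjusted p = 0.00122) and Wwtr1, the Hippo cofactor TAZ (0.17, adjusted p = 0.0313), rose. Nkx2-1, singled out after its values were seen because its motif is shown above, changed by -0.32 (adjusted p = 0.00539). Against C185Gneo, 10 fell and 3 rose, namely Klf5 (0.36), Foxa2 (0.38) and Wwtr1 (0.18), with a median of -0.21, beside 28.7% of all genes called lower and 29.2% called higher. In C185Gneo against WT 0 of 15 were called by limma, with a median of -0.02. With 0.541% of all genes called there, this count does not set the regulators apart. At an unadjusted p under 0.05 2 passed, with voom weights 0, and the smallest adjusted p was 0.448, for Klf5.

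Relatives by protein fold did not move in 1 direction. Of 16 collectin, BRICHOS and saposin family genes, 9 were measured, of which 4 were lower and 3 higher in C185G than in WT (median 0.17). With 27.8% of all genes called lower and 55% in either direction, these counts do not set the relatives apart. The collectin gene Mbl1, mannose-binding lectin, fell from 13.2 ± 1.84 to 4.96 ± 1.03 normalized CPM (adjusted p = 2.41e-06). Among BRICHOS genes, Gkn3, a gastrokine, fell from 9.10 ± 1.78 to 0.813 ± 0.336 (adjusted p = 1.03e-07) and Itm2c from 209 ± 12.8 to 148 ± 8.82 (adjusted p = 1.72e-05), while Itm2a rose from 9.64 ± 1.37 to 22.0 ± 2.45 (adjusted p = 2.76e-06). The saposin genes Psap (0.20, adjusted p = 0.0392) and Psapl1 (2.29, adjusted p = 6.19e-05) rose. Psapl1 was low in both groups, at 0.671 ± 0.231 normalized CPM in WT and 3.35 ± 0.912 in C185G. Against C185Gneo, 4 were lower and 4 higher (28.7% and 29.2% of all genes). In C185Gneo against WT 0 of 9 were called by limma, where 0.541% of all genes were called in either direction. At an unadjusted p under 0.05 2 of the relatives passed there, and with voom weights 0.

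**Figure D5:**
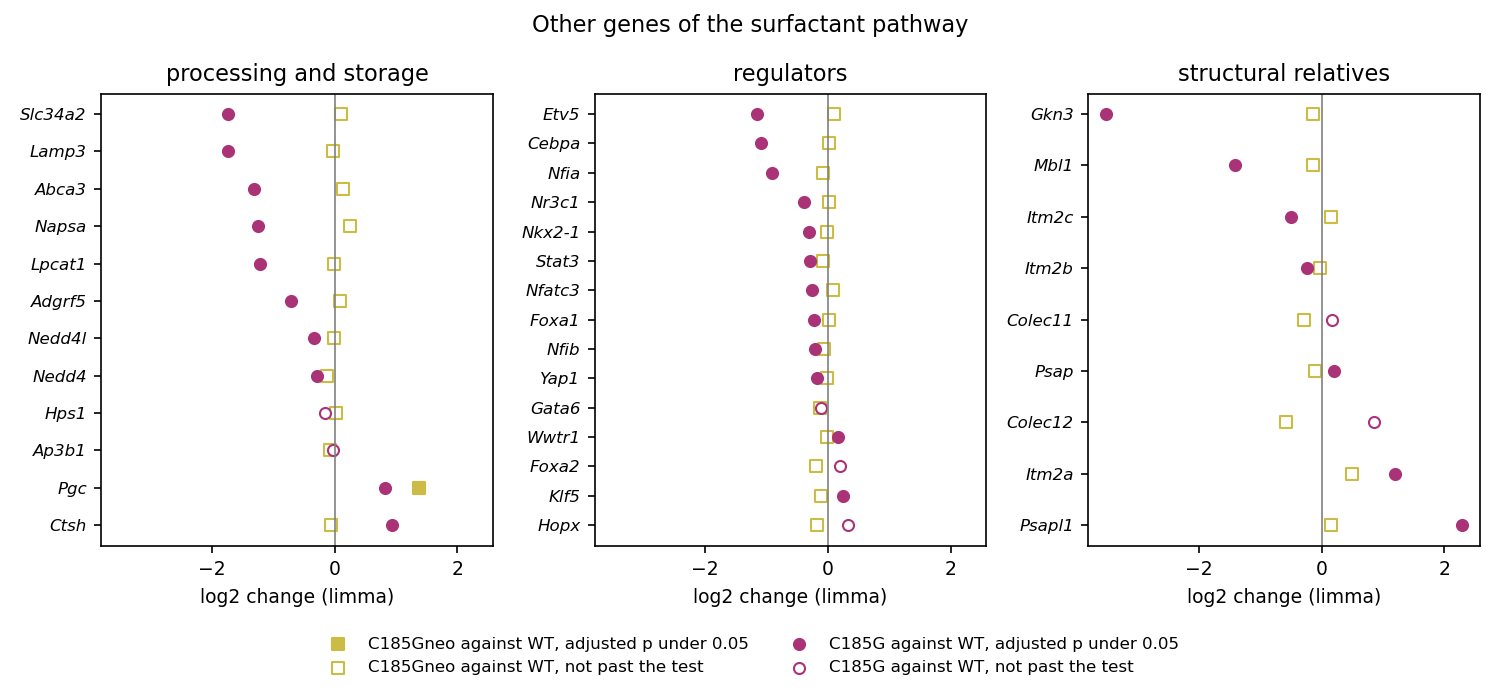
log2 change from the limma fit (horizontal axis) of each measured gene of the 3 pathway lists, as circles for C185G against WT and squares for C185Gneo against WT; filled symbols passed the adjusted p threshold of 0.05. In C185Gneo the only filled square is Pgc (1.37), while most circles are filled and most lie left of 0 among the processing genes and the regulators.

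The identity of the cells was checked with markers of AEC2 and of other lung cells. All 9 AEC2 markers were measured, and their summed level was 21872 to 27148 normalized CPM in WT libraries, 25629 to 28856 in C185Gneo libraries and 5971 to 8981 in C185G libraries. All 9 were lower in C185G in both contrasts, where 27.8% of all genes were called lower against WT and 28.7% against C185Gneo. Their median was -1.64 against WT, and 0 were called by limma in C185Gneo against WT (2 at an unadjusted p under 0.05, 0 with voom weights). With 0.541% of all genes called in that contrast, a count of 0 does not set the markers apart. Of the 9, Lamp3, Abca3, Slc34a2, Lpcat1 and Napsa also belong to the processing list, and Etv5 to the regulators. The fall of Sftpb and Sftpd against WT (-0.97 and -0.75) was smaller than that of each AEC2 marker (the smallest was Etv5, -1.15), a difference that was not tested. Among 7 markers of club cells, which also express Sftpa1, Sftpb and Sftpd, 3 were lower in C185G than in WT and 4 were not called. Of all genes, 27.8% were called lower there. Against C185Gneo 4 of the 7 were lower, beside 28.7% of all genes called lower. Of these 4, Scgb3a1 and Bpifa1 were not called against WT and averaged highest in C185Gneo. Scgb3a1 averaged 103, 228 and 108 normalized CPM in WT, C185Gneo and C185G, and Bpifa1 24.6, 175 and 38.0. In C185Gneo against WT 0 of the 7 were called by limma (Bpifa1 3.06, adjusted p = 0.0555), beside 0.541% of all genes. There 3 passed at an unadjusted p under 0.05 and 1 with voom weights. The summed level of the 7 was 6064 to 8490.2 normalized CPM in WT libraries, 6079.9 to 8015 in C185Gneo libraries and 5113 to 5989.5 in C185G libraries. Scgb1a1, the main club cell secretory protein, was 2996 ± 284 in WT and 2601 ± 197 in C185G (change -0.20, adjusted p = 0.0857). The 3 called lower against WT were Cyp2f2 (-0.62, adjusted p = 0.00108), Scgb3a2 (-0.43, adjusted p = 0.0327) and Krt4 (-0.89, adjusted p = 0.0472). The part of cell composition in the changes of the surfactant protein genes was not tested.

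Alveolar type 1 markers summed to 2153 to 2673 normalized CPM in WT libraries, 2228 to 2507 in C185Gneo libraries and 2035 to 2464 in C185G libraries. Of the 8, Pdpn (1.35, adjusted p = 0.00722) and Clic5 (0.59, adjusted p = 0.0342) rose in C185G against WT and Ager fell (-0.32, adjusted p = 0.00143). Of all genes, 55% were called there in either direction. The largest change among the 8, that of Rtkn2, was not called (-1.67, adjusted p = 0.0552). Ciliated cell markers summed to 570 to 981 over the 12 libraries and endothelial markers to 116 to 248, with 6 of the 8 endothelial genes lower in C185G than in WT, where 27.8% of all genes were called lower. Mesenchymal markers summed to 401 to 614 in WT libraries, 153 to 464 in C185Gneo libraries and 555 to 754 in C185G libraries. Of the 7, 6 were higher in C185G than in C185Gneo (29.2% of all genes were called higher) and 1, Dcn, was higher than in WT (1.03, adjusted p = 0.0467). Per the labels, mesenchymal cells had been reduced by adherence to plastic and CD45+ cells by magnetic beads. Macrophage markers (4 of 8 measured) summed to 34.8 to 65.6 and lymphocyte markers (1 of 6 measured) to 2.22 to 4.98. Of the 4 macrophage markers measured, Chil3 (1.69), Cd68 (0.94) and Mrc1 (0.54) rose in C185G against WT. In that contrast 4388 of the 16080 genes were called higher. Csf1r changed the other way and was not called (-0.79, adjusted p = 0.0545). Chil3 and Mrc1 were low, with WT means of 1.74 and 1.02 normalized CPM. Mrc1 was also lower in C185Gneo than in WT (-1.22, adjusted p = 0.0226). The macrophage sum was 40.4 to 58.7 in WT libraries and 51.4 to 65.6 in C185G libraries. Marco, Adgre1, Siglecf and Ear2 of macrophages were not among the genes measured. The part of these cells in the changes was not tested.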

How the data were processed

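The deposited files hold, for each of 12 AEC2 libraries, 1 log2 value per Ensembl gene. Per the submitters' processing notes STAR, limma and mm10 were used; which counter, annotation, strand setting and scaling they used is not stated there. From the values, the authors' log2 values are whole counts plus 0.5, multiplied by 1 factor per library. Whole counts were recovered (100% within 1e-06), and scaled totals differed by at most 1.08 times. Genes missing from the files were not analysed here, so shares cover measured genes only. Symbols came from GENCODE release M21 (16017 of 16080 identifiers), promoters from RefSeq.

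limma 3.58.1 under R 4.3.3 fitted the 3 groups jointly (lmFit, eBayes with trend and robust), without covariates or a filter; the script was tested on simulated data. Ratios used exact permutation tests (scipy 1.17.1). The exact interval runs between the extreme differences of 2 libraries. Named genes were the members, the 3 nearest patterns of each and, per list, up to 4 genes with the smallest p plus those against the majority. Members and lists were chosen with earlier results of these data known. Alternatives were limma without trend and robust, quantile, library-total and median-of-ratios scaling, log2 of normalized CPM + 1, a minimum mean of 5 normalized CPM, the 8 libraries compared, a replicate block, library quality weights, voom weights and leaving out each library.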

Additional observations from a re-analysis of the deposited data

Results flagged for a closer look

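Sftpd in C185G contained 1 library apart from the rest: replicate 4, at 1323 normalized CPM, lay below the other 3 at 1401 to 1410.5. On the log2 scale its gap to the nearest library was 0.894 of the range of the group, above Dixon's critical value for 4 libraries. Of 21 groups of values examined in this way (4 genes and 3 ratios in 3 groups), this was the only 1 past the critical value, and chance passes about 1 in 20. Without this library Sftpd was still lower in C185G than in WT (log2 change -0.72, limma adjusted p = 5.03e-06).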

How the results depend on the processing

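Of 22 alternatives for each of the 12 changes of the 4 genes, all kept the side of the threshold except Sftpb in C185G under quantile normalization, with -0.15 against WT (adjusted p = 0.0604) and -0.15 against C185Gneo (adjusted p = 0.0582). No called change among the 4 genes changed direction. Under quantile normalization the ratio difference of C185G and WT was 0.27 for Sftpc to Sftpa1, of the other sign (exact permutation p = 0.314), and -0.066 for Sftpc to Sftpd, no longer past the threshold (exact permutation p = 0.743). This setting gives each rank the same value in every library. Changes did not all shrink under it: Sftpc in C185G against C185Gneo went from 1.67 to 2.15. Leaving out 1 library moved no ratio difference by more than the larger SD of the groups compared, but 3 against 4 libraries cannot reach an exact permutation p below 0.0571. The count of genes called in C185Gneo against WT, 87, was 162 with library quality weights and 40 to 112 when 1 library was left out; the cause was not tested. Counts are deep for the 4 genes, with at least 13305 in every library. The number of libraries bounds the p of the exact permutation tests. Calls among the changes of the 4 genes were lost under quantile normalization only.

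Over the genes with a mean of at least 5 normalized CPM, libraries with the same replicate number in the titles were not consistently alike. Of 12 same-numbered pairs, 3 had deviations correlated above 0.1 (range -0.3 to 0.253). Sftpa1 and the AEC2 marker sum were nonetheless highest in replicate 1 and lowest in replicate 4 of each group. Whether the number pairs libraries for these genes was not tested. With the replicate block, 63 genes were called in C185Gneo against WT, Sftpc among them (-3.07, adjusted p = 7.59e-08), 8670 in C185G against WT and 9112 in C185G against C185Gneo, and no call among the changes of the 4 genes changed. With the block 4 pairs cannot reach an exact permutation p below 0.125, so the 8 ratio differences past the threshold without it cannot pass, and their values stay as they were.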
